A study of Mus musculus with 32 samples.

Results

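The 10 genes described here mark the identity of blood vessel lining cells: *Tie1* and *Tek*, the Tie receptors; *Pecam1*, *Cd34* and *Emcn*, surface glycoproteins; *Eng* and *Ramp2*, receptor partners; *Egfl7* and *Vwf*, secreted proteins; and *Erg*, a transcription factor. They were chosen by name, with earlier results of these data known. All 10 were in the table, each on 1 line, out of 38740 gene symbols. RNA was profiled from mouse subventricular zone, a neurogenic zone of the forebrain, at postnatal day 21, in 4 libraries made from pools of 10 cells and 28 libraries made from 1 cell each. The labels give no strain, genotype, treatment, animal or cell sort for either group, so the 28 cells stood as 1 sample, with no p-values. The unit is FPKM, fragments mapped per length of transcript and per depth of library, and a gene was called found in a library at FPKM of at least 1.

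Endothelial cells line every brain vessel and, in the brain, form the blood-brain barrier. Tek (also called Tie2) is the receptor tyrosine kinase that binds angiopoietins, and Tie1 is its relative that has no well-established ligand of its own and joins Tek in a complex. Angiopoietin signalling keeps vessels quiescent, and the phosphatase Ptprb restrains it. Erg belongs to the ETS family of transcription factors, which bind DNA at a GGAA core and are known to drive endothelial genes. In the adult neurogenic zone, vessels lie close to the stem cells.

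RefSeq start-site windows of 300 bases on GRCm38.p6 (250 bases before and 50 after a start) were matched by symbol for 7 of the 10 genes, in 11 windows. The windows of both Tie receptors are given here with those of *Eng*, found in each of the vessel cells described below, and *Emcn*, not found in some of them. Capitals mark GGAA or its reverse complement TTCC. All are written 5′ to 3′ on the gene's own strand.
Tek, chr4:94739039-94739338, plus strand: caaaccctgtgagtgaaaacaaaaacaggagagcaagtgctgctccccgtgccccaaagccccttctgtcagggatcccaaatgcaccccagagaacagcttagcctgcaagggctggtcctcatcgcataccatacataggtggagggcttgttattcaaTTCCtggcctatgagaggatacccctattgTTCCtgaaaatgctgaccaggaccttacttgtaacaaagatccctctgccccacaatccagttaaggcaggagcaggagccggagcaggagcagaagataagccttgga
Tie1, chr4:118489800-118490099, minus strand: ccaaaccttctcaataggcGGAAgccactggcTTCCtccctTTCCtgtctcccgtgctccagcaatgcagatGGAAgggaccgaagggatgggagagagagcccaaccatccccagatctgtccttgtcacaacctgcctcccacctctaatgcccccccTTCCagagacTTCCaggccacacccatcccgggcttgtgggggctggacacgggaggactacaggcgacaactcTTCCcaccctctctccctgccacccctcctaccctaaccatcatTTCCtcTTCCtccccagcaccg
Eng, chr2:32646345-32646644, plus strand: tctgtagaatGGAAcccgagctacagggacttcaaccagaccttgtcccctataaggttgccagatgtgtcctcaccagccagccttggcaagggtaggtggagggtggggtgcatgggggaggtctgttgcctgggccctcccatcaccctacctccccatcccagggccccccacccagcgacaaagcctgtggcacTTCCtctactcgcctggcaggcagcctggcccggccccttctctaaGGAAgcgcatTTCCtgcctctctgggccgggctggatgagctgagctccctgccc
Emcn, chr3:137340828-137341127, plus strand: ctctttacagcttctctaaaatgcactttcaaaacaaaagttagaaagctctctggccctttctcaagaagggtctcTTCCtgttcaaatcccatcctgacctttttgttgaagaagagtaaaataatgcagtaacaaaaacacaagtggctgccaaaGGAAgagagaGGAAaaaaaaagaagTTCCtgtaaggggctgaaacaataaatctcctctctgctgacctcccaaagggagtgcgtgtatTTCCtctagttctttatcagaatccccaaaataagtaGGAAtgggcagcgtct
The window of *Tie1* held 9 copies of the core, that of *Emcn* 6, that of *Eng* 4 and that of *Tek* 2. All 11 windows of the 7 genes held at least 1 copy, as did 96% of the 32851 RefSeq windows of the same length. The longer string AGGAAG, or CTTCCT on the other strand, contains the core and was in 7 of the 11 windows, against 35.4% of all windows. By gene, 6 of the 7 held it in at least 1 window. *Egfl7* and *Erg* have several windows, so the count by gene does not compare with that share. The windows of *Tie1*, *Eng* and *Emcn* held 2 copies each and that of *Tek* held none. These are matches of letters and not binding sites.

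*Egfl7* also carries a microRNA known from endothelial cells, miR-126, whose hairpin (chromosome 2, 26591357 to 26591429, GRCm38) shares 73 bp with annotated exons of *Egfl7*. A gene on the opposite strand, *Mir126b*, shares 58 bp with these exons, and its mature strands are not given here. The mature strand miR-126a-3p is given with its seed, bases 2 to 8, in capitals.
mmu-miR-126a-3p: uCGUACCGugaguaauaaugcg
The line of the hairpin was listed at 0 in all 28 cells and in 31 of the 32 libraries, and lay below 0.001 FPKM in the remaining one, a pool. Its host gene reached 5475 FPKM in a cell, while the line of the microRNA stayed at or near 0. This line is shorter than the fragment length of 200 bp assumed here, and its reads cannot be told apart from those of *Egfl7*. It therefore does not tell whether miR-126 was present.

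The cells were placed by marker lists that hold none of the 10 genes. An endothelial list of 12 genes led 8 cells (cells 1, 2, 3, 6, 7, 8, 16 and 17), with 10 to 12 markers found in each and a mean of 6.99 to 9.28 in log2(FPKM + 1); these are called endothelial-like. In the other 20 cells 0 to 3 of the 12 markers were found. Among the endothelial-like cells, cell 3 also had 9 of 12 microglial markers (mean 5.37), and cell 6 had 2 of 3 erythroid markers (mean 3.86) and 6 of 10 oligodendrocyte markers. Cells 17 and 1 also had 2 of 3 erythroid markers, at means of 1.31 and 0.716. Mural cell markers were found at 1 or 2 of 10 in each, platelet markers at 0 to 2 of 6 and fibroblast markers at 0 of 6. No doublet caller was run. The step of 1 fragment among low values gave an approximate depth for these 8 cells, at which FPKM of 1 equals 6.23 to 20.7 fragments per kilobase of transcript. Cells 18 to 22 and cells 23 to 28 stand apart as library sets: where a gene reached 500 FPKM in a single cell and no other cell of the set had 5% as much, those other cells were above 0 in 98.7% and 97.6% of values in these sets, against 15.1% among cells 1 to 17. The labels do not name these sets. The shares rest on 611 and 662 genes in sets of 5 and 6 cells. Among cells 1 to 17 they rest on 140 genes, and the condition is stricter there, since it spans 17 cells. All 8 endothelial-like cells lie outside these sets.

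Of 80 pairs of gene and endothelial-like cell, 72 were found, or 90% (95% exact Clopper-Pearson interval 81.2% to 95.6%). Of 200 pairs of gene and other cell, 28 were found, or 14% (9.51% to 19.6%). At FPKM of at least 10 the counts were 66 of 80 pairs in endothelial-like cells and 4 of 200 in other cells. The intervals cover counting error only, and pairs that share a cell are not independent. Endothelial-like cells had 6 to 10 of the 10 genes, and other cells had 0 to 3.

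**Figure D1:**
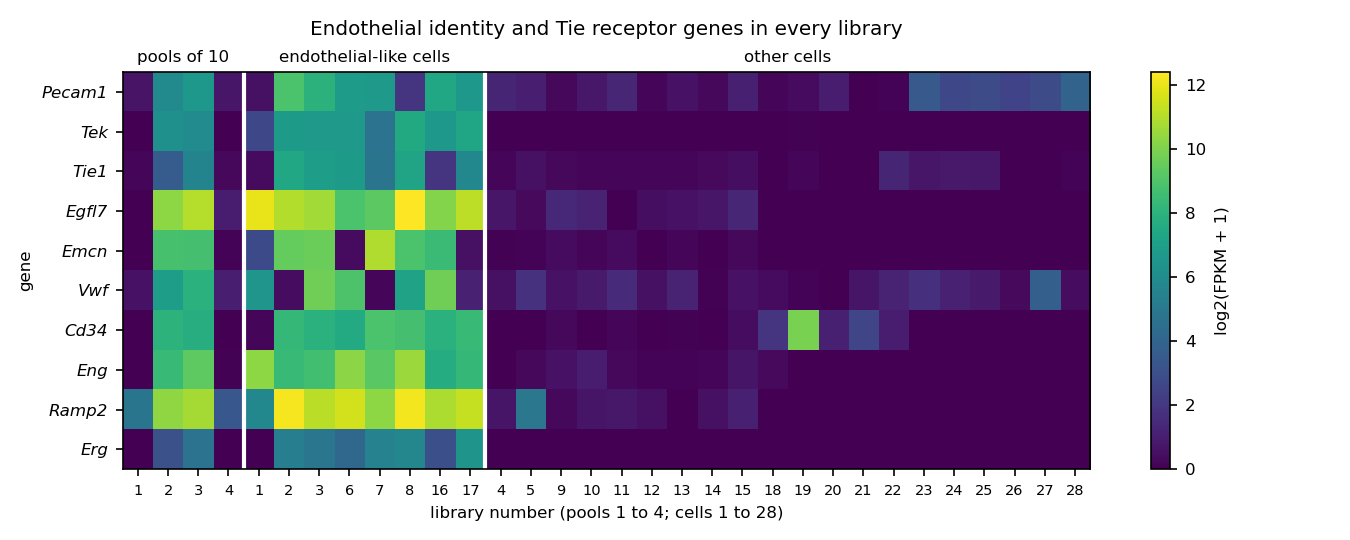
Level of each of the 10 genes (rows) in every library (columns), as log2(FPKM + 1), with the 4 pools at the left, the 8 endothelial-like cells in the middle and the other 20 cells at the right. Pools 2 and 3 and the endothelial-like cells are bright in most rows, and the brightest value among the other cells is *Cd34* in cell 19, at 958 FPKM.

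Each gene was set between the cells as log2((mean FPKM in endothelial-like cells + 1)/(mean FPKM in other cells + 1)). All 10 genes had a ratio of at least 2 on this scale, against 10.8% of the 18856 genes found in at least 1 cell. A ratio of at most -2 was held by 0 of the 10 and by 22.6% of all those genes. The median ratio of the 10 was 6.80 (range 2.49 to 10.68), and the median of all those genes was -0.30. In 4 of the 10 genes (*Tek*, *Egfl7*, *Eng* and *Ramp2*), every endothelial-like cell was above every other cell, against 0.239% of all genes. No test was made, since the cells are 1 sample.

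**Figure D2:**
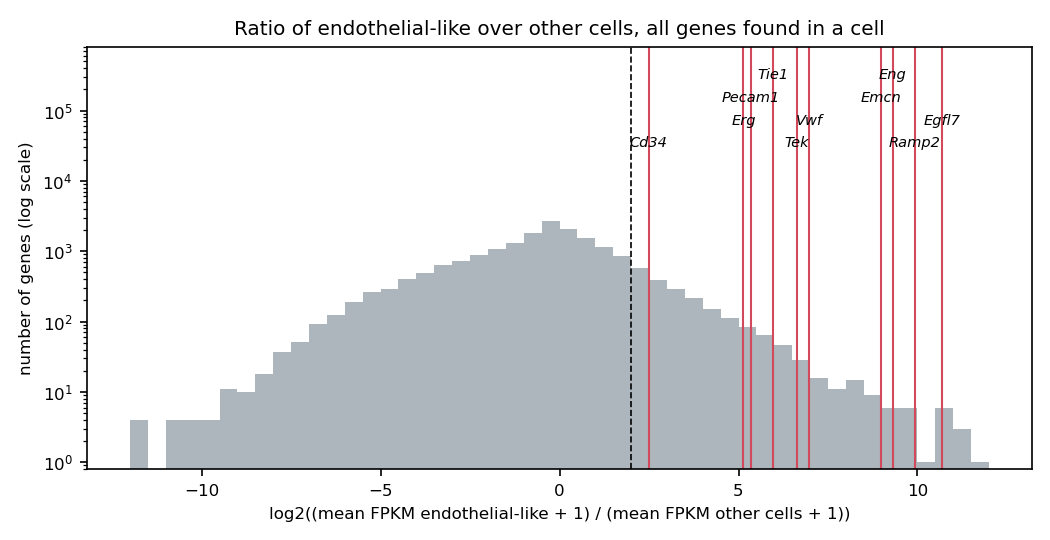
Distribution of the log2 ratio of endothelial-like over other cells for all 18856 genes found in a cell (grey, number of genes on a log scale), with the 10 genes as red lines and the ratio of 2 as a dashed line. *Cd34* lies at 2.49, just right of the dashed line, and the other 9 genes lie at 5.14 or above.

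Of the Tie receptors, *Tek* was found in no cell outside the endothelial-like ones (chromosome 4, 94739289 to 94874976, plus strand, GRCm38). *Tek* had 5.54, 100.5 and 188 FPKM as the lowest, median and highest value in endothelial-like cells, against at most 0.0564 FPKM in other cells. It was found in 8 of 28 cells, which were the 8 endothelial-like ones (28.6%, interval 13.2% to 48.7%). Such an interval, here and for *Emcn*, covers counting error only and not differences between animals, which the labels do not name. The ratio was 6.63, with an SD of 1.62 over the 8 endothelial-like cells. Here and below, this SD is of the log2 ratio of each cell over the mean of the other cells. It is a spread between cells and is not centred on the ratio of means. *Tie1* (chromosome 4, 118471191 to 118490061, minus strand) had 0.301, 81.4 and 171 FPKM in endothelial-like cells, against at most 1.43 FPKM in other cells, reached in cell 22. It was found in 7 of the 8 endothelial-like cells, in cell 16 at 2.76 FPKM only, and was below FPKM of 1 in cell 1. The ratio of *Tie1* was 5.96 (SD 2.65 over the 8 cells). *Tek* exceeded *Tie1* in 4 of the 8 cells, and in cell 16 they lay far apart, with 97.97 FPKM of *Tek* and 2.76 FPKM of *Tie1*. Over these 8 cells, which come from 1 study and differ in depth, their Spearman correlation was 0.762.

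The ligands of Tek were not found in the same cells. Of 13 genes of the Tie pathway, 3 had a ratio of at least 2 and 0 had one of at most -2, against 10.8% and 22.6% of all genes, and the median of the 11 found in a cell was 0.42. *Ptprb*, the phosphatase that restrains Tek, was found in all 8 endothelial-like cells at 79.4 to 328 FPKM and in 1 other cell. *Nos3*, the endothelial nitric oxide synthase, was found in all 8 at 13.2 to 249 FPKM and in 0 other cells. *Grb14*, an adaptor that can bind Tek, was found in 7 endothelial-like and 5 other cells and had a ratio of 0.42. *Angpt1*, the activating ligand, was found in 0 endothelial-like and 2 other cells. *Angpt2*, a ligand released by endothelial cells in remodelling vessels, was found in 0 endothelial-like cells, with a highest value of 0.628 FPKM in cell 16, and in 1 other cell. Both ligands were named after their values were seen.

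Of the surface glycoproteins, *Pecam1* (chromosome 11, 106654217 to 106750628, minus strand), an adhesion molecule of endothelial junctions that platelets and leukocytes also carry, had 0.482, 109.9 and 482 FPKM in endothelial-like cells. In other cells it had 0.0251, 1.02 and 14.4 FPKM. Of the cells, 7 of 8 endothelial-like and 10 of 20 others had it found, and its ratio was 5.35 (SD 2.99). The groups overlap: cell 1 had 0.482 FPKM and cell 8 had 2.64 FPKM, below the 14.4 FPKM of cell 28. Cells 23 to 28, all led by neuroblast markers and all of 1 library set, had 4.60 to 14.4 FPKM of *Pecam1*, whereas in cells 18 to 22 it was at most 0.971 FPKM. In cells 23 to 28, 0 of the 12 endothelial markers were found. Whether the trait of the set has a part in these values was not tested.

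*Cd34* (chromosome 1, 194938819 to 194961279, plus strand), a sialomucin of vessel and blood-forming cells, had 0.126, 278 and 471 FPKM in endothelial-like cells, and all but cell 1 had at least 193 FPKM. In other cells its median was 0.0287 FPKM and its highest value was 958 FPKM, in cell 19, above every endothelial-like cell. Cell 19 was led by microglial markers (12 of 12), had 0 of the 12 endothelial markers, and had *Tek*, *Tie1*, *Pecam1* and *Vwf* at 0.0564, 0.109, 0.267 and 0.0856 FPKM. Of the 6 platelet markers it had 1, *Gp9*, at 7852 FPKM, with *Pf4* and *Itga2b* listed at 0. The other cells of its library set, cells 18, 20, 21 and 22, had 2.80, 1.14, 5.12 and 1.004 FPKM of *Cd34*, or 0.105% to 0.535% of the value in cell 19. This 1 library decides the ratio of *Cd34*, which was 2.49 (SD 2.89) with all cells and 7.47 without cell 19. With every library scaled to the same upper quartile the ratio was 0.055, where the median of all genes was -0.87. An antisense gene, *Gm16897*, shares 148 bp of exon with *Cd34* and was found in 6 of the endothelial-like cells at 2.005 to 27.1 FPKM. It was listed at 0 in cell 19.

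*Emcn* (chromosome 3, 137341067 to 137432185, plus strand), endomucin, an anti-adhesive sialomucin of capillary and venous endothelium, was either high or nearly absent in the endothelial-like cells. Cell 7 had 1964 FPKM, cells 2, 3, 8 and 16 had 356 to 788 FPKM, and cell 1 had 5.83 FPKM. Cells 17 and 6 had 0.453 and 0.278 FPKM, near the highest of the other cells, 0.305 FPKM in cell 11, and only cell 6 overlapped with them. It was found in 6 of 28 cells (21.4%, interval 8.30% to 41.0%), all endothelial-like, and its ratio was 8.99 (SD 4.39).

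Among the receptor partners, *Eng* (chromosome 2, 32646595 to 32682669, plus strand), endoglin, a co-receptor for BMP9 and TGF-beta ligands, varied less than *Emcn*. It had 207, 499.8 and 1490 FPKM in endothelial-like cells, against at most 0.921 FPKM in other cells, so the groups did not overlap. It was found in the 8 endothelial-like cells only, and its ratio was 9.30 (SD 1.09). Of 12 genes of its signalling partners, 5 had a ratio of at least 2 and 0 had one of at most -2, against 10.8% and 22.6% of all genes, and the median of the 10 found in a cell was 2.26. *Id1*, a target of BMP signals, averaged 809.9 FPKM in endothelial-like cells and 93.5 FPKM in other cells. It was found in 7 endothelial-like and 4 other cells, and had 0.392, 19.5 and 24.7 FPKM in cells 1, 7 and 8. *Tgfbr2*, a TGF-beta receptor, averaged 83.2 FPKM in endothelial-like cells and 12.3 FPKM in other cells. It was found in 7 endothelial-like and 3 other cells. *Id3*, another BMP target, averaged 302 FPKM in endothelial-like cells and 34.01 FPKM in other cells, and was found in 6 of each. *Acvrl1*, the ALK1 receptor that works with endoglin, was found in 6 endothelial-like and 0 other cells, with a ratio of 7.92; it was named after its values were seen. The circulating ligands *Gdf2* (BMP9) and *Bmp10* were listed at 0 in every library and were named after their values were seen.

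*Ramp2* (chromosome 11, 101246028 to 101259546, plus strand), which turns the receptor Calcrl into a receptor for adrenomedullin, had the highest median of the 10 genes. It had 54.9, 2427 and 4948 FPKM in endothelial-like cells, against at most 29.1 FPKM in other cells, and the next highest other cell, cell 15, had 1.13 FPKM. The groups did not overlap, though cell 1, at 54.9 FPKM, lay far below the remaining endothelial-like cells, at 1273 FPKM or above. The ratio was 9.93 (SD 2.08). The highest other cell was cell 5, which was led by choroid plexus markers (7 of 8). *Vps25*, a neighbour on the same strand, shares 1103 bp of annotated exon with *Ramp2*, and had 25.2 FPKM in cell 5, but 219 FPKM in cell 4, where *Ramp2* had 0.633 FPKM, and 3970 FPKM in cell 19, where *Ramp2* was below 0.001 FPKM. The partner *Calcrl* was found in 2 endothelial-like cells, cells 8 and 16, at 7.75 and 2.097 FPKM, and in 1 other cell. The ligand *Adm* was found in 1 endothelial-like cell, cell 16, at 123 FPKM, and in 3 other cells. *Ramp1* was found in 0 endothelial-like and 5 other cells, with a ratio of -4.89, and *Ramp3* was listed at 0 in all cells and pools and was named after its values were seen. Of these 4 genes, *Adm* had a ratio of at least 2 and *Ramp1* one of at most -2, against 10.8% and 22.6% of all genes, and the median of the 3 found in a cell was 0.88.

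Of the secreted proteins, *Egfl7* (chromosome 2, 26580014 to 26593120, plus strand), an extracellular matrix protein made by endothelial cells, had 475, 1846 and 5475 FPKM in endothelial-like cells, against at most 1.71 FPKM in other cells. It had the largest ratio of the 10, 10.68 (SD 1.23), and the groups did not overlap. It was found in 3 other cells, cells 9, 10 and 15, all led by ependymal markers, at 1.38 to 1.71 FPKM. *Gm20532* shares 264 bp of exon with it on the same strand and reached at most 8.60 FPKM in a cell.

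*Vwf* (chromosome 6, 125546774 to 125686679, plus strand), von Willebrand factor, the platelet-tethering protein stored in endothelial cells, had the highest coefficient of variation, 123%. Its values were 851 FPKM in cell 3, 842 FPKM in cell 16, 496 FPKM in cell 6, 141 FPKM in cell 8 and 88.9 FPKM in cell 1. Cells 17, 2 and 7 had 1.22, 0.336 and 0.127 FPKM, within the range of the other cells, which had 0.558 FPKM as the median and 12.7 FPKM as the highest value, in cell 27. Of the cells, 6 of 8 endothelial-like and 7 of 20 others had it found, and its ratio was 6.97 (SD 4.22).

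*Erg* (chromosome 16, 95359169 to 95586593, minus strand) had the lowest median of the 10 genes and, like *Tek*, was found in no other cell. It was listed at 0 in cell 1 and had 7.19 to 86.1 FPKM in the remaining endothelial-like cells, with a median of 33.7 FPKM over the 8. In other cells it reached 0.0229 FPKM and was listed at 0 in 17 of 20. Its ratio was 5.14. Of 17 other transcription factors of endothelial cells, 15 had a ratio of at least 2 and 0 had one of at most -2, against 10.8% and 22.6% of all genes, and their median was 4.55. *Epas1*, a hypoxia-inducible factor, and *Klf4*, a factor induced by blood flow, were found in all 8 endothelial-like cells and averaged 518 and 417 FPKM there, against 4.59 and 8.75 FPKM in other cells. *Klf2*, another flow-induced factor, was found in 7, at a mean of 394 FPKM, against 1.44 FPKM in other cells. The ETS factor closest to Erg, *Fli1*, was found in 5 endothelial-like cells, namely cells 2, 3, 6, 8 and 16, and in 0 other cells; it was named after its values were seen.

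**Figure D3:**
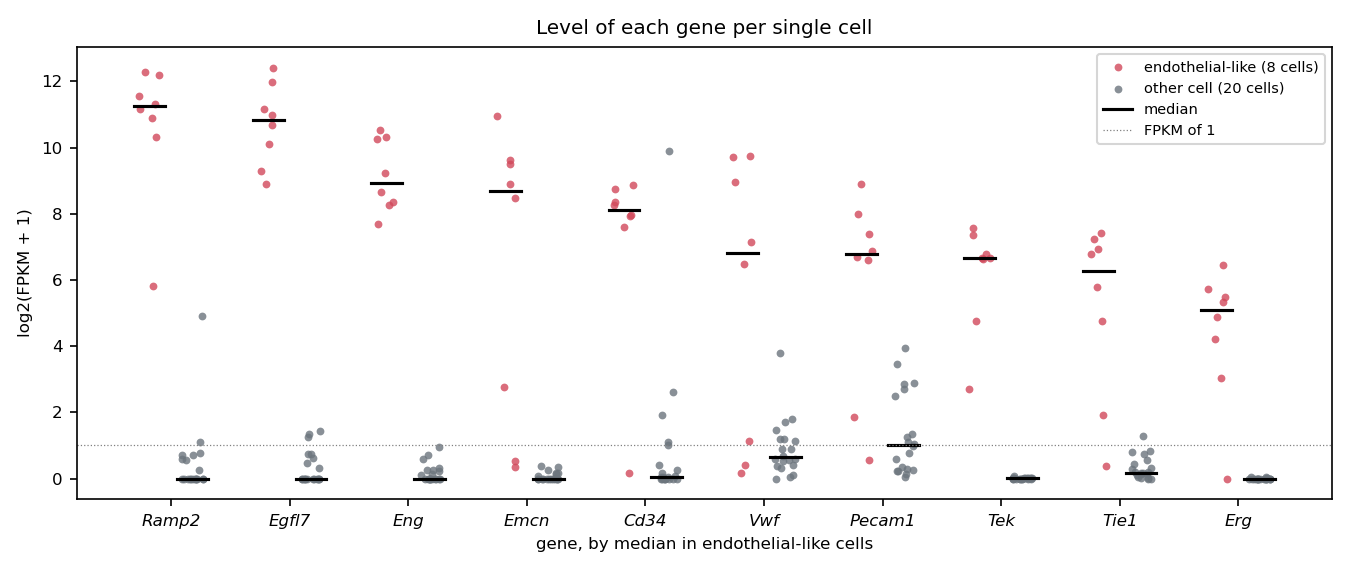
Level of each gene per single cell in log2(FPKM + 1), in the 8 endothelial-like cells (red) and the 20 other cells (grey), with the median of each as a black line and FPKM of 1 as a dotted line. Points of *Tek*, *Egfl7*, *Eng* and *Ramp2* do not overlap between the sets, while *Emcn* and *Vwf* split into high and low red points.

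The genes followed an order by median in endothelial-like cells: *Ramp2*, *Egfl7*, *Eng*, *Emcn*, *Cd34*, *Vwf*, *Pecam1*, *Tek*, *Tie1* and *Erg*. Neighbours in this order were mostly not separated within cells. *Ramp2* exceeded *Egfl7* in 6 of 8 cells, and *Egfl7* exceeded *Eng* in 7 of 8. *Eng* and *Emcn*, *Cd34* and *Vwf*, and *Tek* and *Tie1* each exceeded the other in 4 of 8 cells. *Emcn* was above *Cd34* in 6 cells, and *Vwf* above *Pecam1*, *Pecam1* above *Tek* and *Tie1* above *Erg* in 5 cells each.

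The endothelial-like cells differed among themselves in which of the 10 genes they held. *Tek*, *Egfl7*, *Eng* and *Ramp2* were found in all 8, or 4 of 10 genes, against 18% of the 6100 genes with a mean of at least 10 FPKM in these cells. The coefficient of variation over the 8 cells was lowest for *Cd34* (52.8%), *Tek* (62.1%), *Ramp2* (63.5%) and *Eng* (70.7%) and highest for *Vwf* (123%), *Emcn* (122%) and *Pecam1* (102%). Cells 3, 8 and 16 had all 10 genes, cells 2, 6, 7 and 17 had 9, and cell 1 had 6. Of the 8 pairs not found, 4 were in cell 1, which lacked *Pecam1*, *Tie1*, *Cd34* and *Erg* yet had 4074 FPKM of *Egfl7* and 1272 FPKM of *Eng*. Cell 1 had 3062 genes found, against 4844 to 6979 in the other endothelial-like cells, and at its depth FPKM of 1 equals 13.9 fragments per kilobase, within their range. The part of the lower number of genes in these values was not tested. The remaining 4 pairs were *Vwf* in cells 2 and 7 and *Emcn* in cells 6 and 17.

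Lists of arterial, venous and capillary genes were counted in the same 8 cells. Capillary genes were the most widely held, with 5 to 7 of 7 found in each cell. Among them were *Mfsd2a*, a lipid transporter of the blood-brain barrier, at 110 to 856 FPKM, *Spock2*, a proteoglycan, at 8.28 to 334 FPKM, and *Slc22a8*, an organic anion transporter, at 1.90 to 504 FPKM. Arterial genes were found at 9 of 12 in cell 2 and 8 of 12 in cell 3, and at 0 to 4 in the others. *Gkn3*, a gene of mouse brain arteries named after its values were seen, had 2288 and 701 FPKM in cells 2 and 3 and was below FPKM of 1 in the other 6. Venous genes were found at 10 of 11 in cell 16, 6 in cell 1, 5 in cell 3 and 1 to 3 in the others. *Slc38a5*, a glutamine transporter of venous and capillary endothelium, had 1261 and 1259 FPKM in cells 16 and 1 and at most 107 FPKM in the others. *Icam1*, a leukocyte adhesion molecule, had 715 and 2769 FPKM in cells 16 and 1 and at most 32.1 FPKM in the others. *Lcn2* and the venular chemokine receptor *Ackr1* were found in cell 16 alone, at 355 and 142 FPKM; both were named after their values were seen. The notch target *Hey1*, the guidance receptor *Unc5b* and the notch ligand *Dll4*, the arterial genes found in the largest numbers of these cells, were in 5, 5 and 4 of the 8. *Tmem252* of the venous list was in 6.

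**Figure D4:**
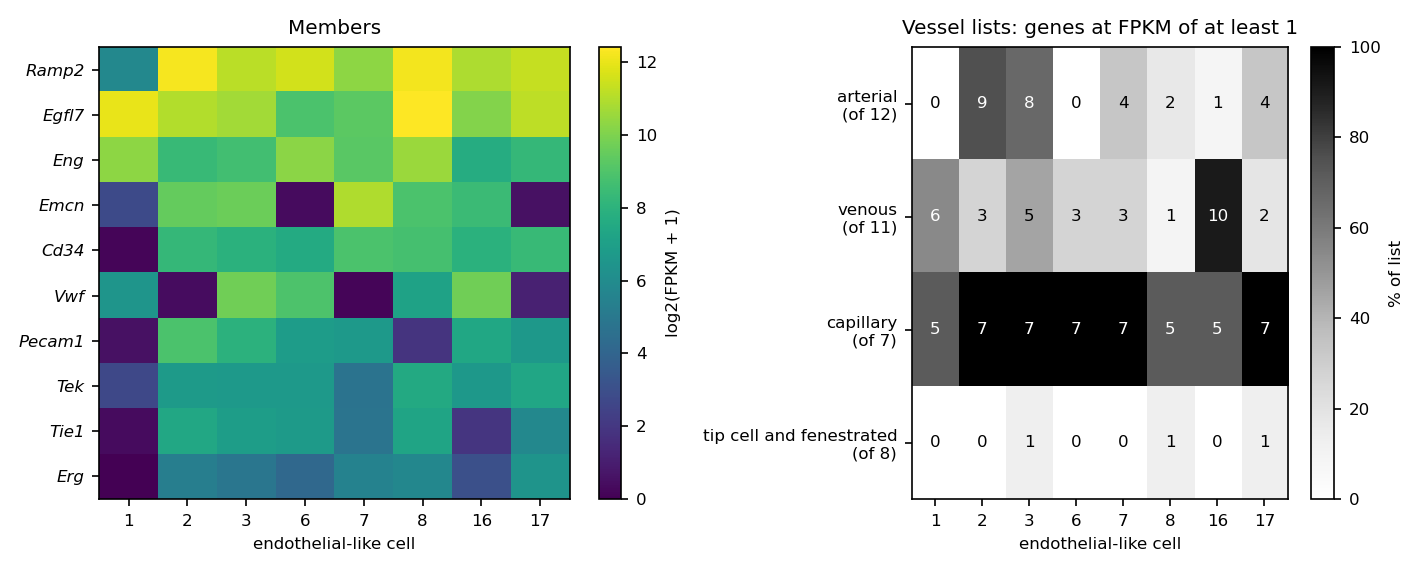
The 8 endothelial-like cells (columns) with, at the left, the level of the 10 genes in log2(FPKM + 1) and, at the right, the number of genes of each vessel list at FPKM of at least 1, shaded by percent of the list. Cells 2 and 3 hold 9 and 8 of 12 arterial genes, cell 16 holds 10 of 11 venous genes, and *Vwf* is high in cells 3, 6 and 16.

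High *Vwf* stood beside 8 of 12 arterial and 5 of 11 venous genes in cell 3. In cell 16 it stood beside 1 of 12 arterial and 10 of 11 venous genes, and in cell 6 beside 0 of 12 and 3 of 11. Cell 1, with 88.9 FPKM of *Vwf*, had 0 of 12 arterial and 6 of 11 venous genes. Cell 8, with 141 FPKM, had 2 of 12 and 1 of 11. Cells 3 and 16, the highest in *Vwf*, also had 2 and 1 of the 6 platelet markers, *Pf4* at 113 FPKM in cell 3 and *Itga2b* at 85.8 FPKM in cell 16, while cells 1, 2, 6, 7, 8 and 17 had 0 of 6. Cell 3 also had 9 of 12 microglial markers. Outside the endothelial-like cells, those with 1 of 6 platelet markers had at most 2.46 FPKM of *Vwf*. Among them were cell 10, with 75.4 FPKM of *Itga2b*, and cell 19, with 7852 FPKM of *Gp9*. The part of platelet RNA in the *Vwf* values was not tested. Cells 2 and 3, with the most arterial genes, had 0.336 and 851 FPKM of *Vwf* and 719 and 788 FPKM of *Emcn*. The cells without *Emcn*, cells 6 and 17, had 0 and 4 of 12 arterial genes, 3 and 2 of 11 venous genes, and 7 of 7 capillary genes each. Of 8 tip cell and fenestrated vessel genes, 0 or 1 were found in each endothelial-like cell; the 1 was *Nid2*, a basement membrane protein, in cells 3, 8 and 17. *Plvap*, a protein of fenestrated endothelium named after its values were seen, was listed at 0 in all 8. Against the 10.8% of all genes with a ratio of at least 2, the counts were 7 of 12 arterial, 6 of 11 venous, 6 of 7 capillary and 0 of 8 tip cell and fenestrated genes, and 1 of the last list had a ratio of at most -2, against 22.6% of all genes. Their medians, over the genes found in a cell, were 3.08, 3.70, 5.37 and -1.67.

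Within the 8 endothelial-like cells the genes did not vary as 1 block. The mean of the 45 pairwise Spearman correlations was 0.149 over the 8 cells, with 25 pairs above 0 and 16 below. Over all 28 cells it was 0.557. Those correlations take in the difference between endothelial-like and other cells. They also rank values below FPKM of 1 among the other cells. Their highest was that of *Emcn* with *Eng*, 0.892 over the 28 cells and -0.0238 over the 8. In the 20 other cells both genes stayed below FPKM of 1, and were listed at 0 in 12 and 11. The part of the library sets in the mean over 28 cells was not tested. The highest values over the 8 were those of *Tie1* with *Ramp2* (0.905), *Tek* with *Ramp2* (0.881), *Cd34* with *Erg* (0.833) and *Tek* with *Tie1* (0.762). The lowest were those of *Pecam1* with *Eng* (-0.595), *Vwf* with *Cd34* (-0.548) and *Pecam1* with *Egfl7* (-0.524). The cells come from 1 study and differ in depth, and with 8 points these values are a description.

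The genes whose pattern over the 28 cells was most like each member were taken from 10712 genes found in at least 5 cells. These correlations also rank values below FPKM of 1, and *Emcn* and *Egfl7* were listed at 0 in each of cells 18 to 28. The part of the library sets in them was not tested. Cells 6 and 17, with 0.278 and 0.453 FPKM of *Emcn*, had 5826 and 5990 FPKM of *Ly6c1*. The closest were *Ly6c1* to *Emcn* (Spearman 0.964) and *Slc2a1*, the glucose transporter of the blood-brain barrier, to *Egfl7* (0.963). Next were *Atp10a* to *Erg* (0.925), *Ltbp4* to *Ramp2* (0.923), *Fn1*, fibronectin, to *Eng* (0.920) and *Hspb1* to *Tek* (0.892). *Rasgrp3* was closest to *Cd34* (0.875), *Trim25* to *Pecam1* (0.838), *Crip2* to *Tie1* (0.833) and *Ppm1g* to *Vwf* (0.744). The next closest pairs were *Ly6a* and *9430020K01Rik* for *Emcn*, *Cldn5* and *Wfdc1* for *Egfl7*, *Gm20748* and *Gm7676* for *Erg*, and *Mfsd2a* and *Esam* for *Ramp2*. They were *Slco1c1* and *Akap12* for *Eng*, *Tpm1* and *Tinagl1* for *Tek*, *St8sia4* and *Slc6a6* for *Cd34*, *Ece1* and *Podxl* for *Pecam1*, *Grasp* and *Efr3b* for *Tie1*, and *Gm12879* and *2900056M20Rik* for *Vwf*. None of the 10 members was among the closest 3 of another. The likeness of *Vwf* was the weakest, and *Ppm1g* was found in 6 endothelial-like and 6 other cells.

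The pools of 10 cells fell apart in these genes. Pools 2 and 3 had all 10 genes found, pool 4 had 2 (*Vwf* at 1.04 and *Ramp2* at 9.37 FPKM) and pool 1 had 1 (*Ramp2* at 26.97 FPKM). The endothelial markers that hold none of the 10 went the same way, with 12, 12, 6 and 4 of 12 found in pools 2, 3, 4 and 1. *Tek* had 0.0153, 73.1, 63.5 and 0.0261 FPKM in pools 1 to 4, and *Tie1* had 0.125, 11.3, 47.2 and 0.217 FPKM. *Egfl7* was listed at 0 in pool 1 and had 1261, 2066 and 0.982 FPKM in pools 2 to 4, and *Erg* was listed at 0 in pools 1 and 4 and had 7.51 and 25.9 FPKM in pools 2 and 3. *Emcn* and *Vwf*, which were missing from some endothelial-like cells, were present in both pools: *Emcn* had 443 and 435 FPKM and *Vwf* had 121 and 244 FPKM in pools 2 and 3. *Ramp2* in pools 1 and 4 stood beside 8 of 8 choroid plexus markers in each, as it did in cell 5 beside 7 of 8, and *Vps25* had 68.8 and 39.6 FPKM in those pools. Whether choroid plexus RNA or *Vps25* has a part in it was not tested.

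As a share of the mean in endothelial-like cells, the 10 genes had a median of 48.3% in pool 2 (range 14.2% to 92.5%) and 76.1% in pool 3 (range 59.5% to 93.0%). In pools 1 and 4 the medians were 0.0125% and 0.0353%, and the highest shares were 1.04%, of *Ramp2*, and 0.465%, of *Pecam1*. The 12 endothelial markers had medians of 53.1% and 87.9% in pools 2 and 3. *Tie1* was the lowest of the 10 in both pools, at 14.2% in pool 2 and 59.5% in pool 3. In a pool, fewer cells of a type and less RNA per cell cannot be told apart. Pool 3 also had 10 of 11 venous and 10 of 12 arterial genes, and pool 2 had 7 of 11 and 6 of 12.

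**Figure D5:**
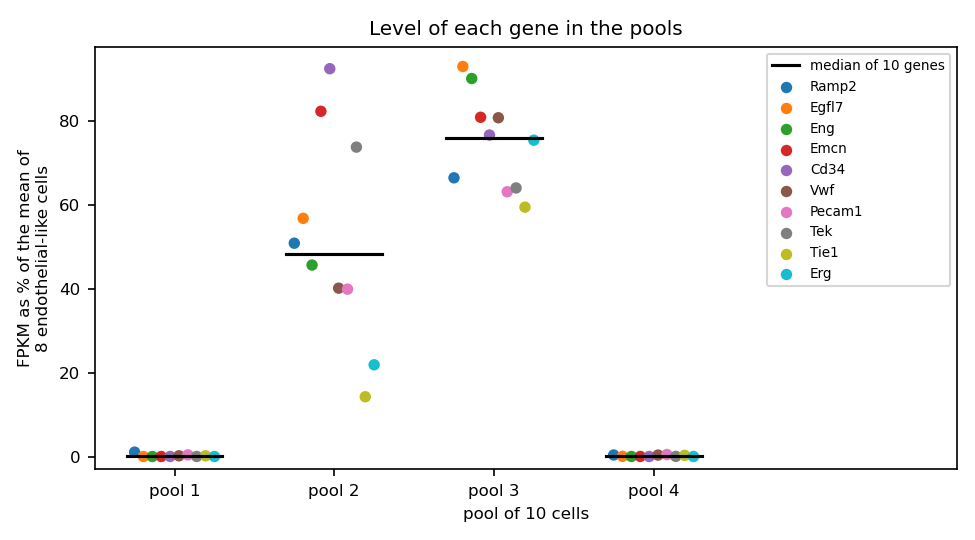
FPKM of each of the 10 genes in each pool of 10 cells, as percent of the mean of the 8 endothelial-like cells, with the median of the 10 genes as a black line. Pool 3 spans 59.5% to 93.0%, pool 2 spans 14.2% to 92.5%, and pools 1 and 4 lie near 0.

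As a group, pools and single cells had near-equal means for these genes, with a large spread between pools. The ratio, with 1 added to each mean as above, was taken on the log2 scale as pools over cells. Its median over the 10 genes was 0.062, and the median of the 19783 genes found in any library was 0.064. The median taken in each pool alone had an SD of 3.82 over the 4 pools, which is not a spread around 0.062. It ranged from -0.60 for *Tie1*, at a mean of 14.7 FPKM in pools and 22.9 FPKM in cells, to 0.51 for *Emcn*, at 219.7 FPKM in pools and 154 FPKM in cells. Of the 10 genes, 0 had a ratio of at least 1 and 0 of at most -1, against 12.9% and 13.9% of all genes. Without pool 3, 4 had one of at most -1: *Tie1* at -2.29, *Erg* at -1.63, *Pecam1* at -1.10 and *Vwf* at -1.07. Without pool 3 the median ratio was -0.81, and without pool 1 or pool 4 it was 0.47.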

How the data were processed

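The authors deposited 1 table of FPKM per gene and library. TopHat 1.41, Cufflinks 2.02 and build mm9 are named, per the submitters' processing notes. The loci in the table match GRCm38 instead: of its 39011 lines, 96.0% have an ID in GENCODE M21 and 99.7% of these lie over that gene, so coordinates are given as GRCm38. For annotation release, strand setting and read layout, the sources used here give nothing, so reads of overlapping genes cannot be told apart. FPKM is per transcript length, and a listed 0 need not mean no RNA, since mt-Co1 has 0 in each of the 32 libraries.

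Lines of 1 symbol were summed, 27 symbols turned into dates were restored by gene ID, and 1 gene (Ackr1) listed under another symbol was matched by ID. Slc7a5 and Hbb-b1 were not analysed here. Depth came from the most frequent low value of FPKM times length over 2342 genes of 1 exon, with an assumed fragment length of 200 bp. It was clear in 20 libraries and is approximate.

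A cell was endothelial-like where the 12 endothelial markers had the highest mean log2(FPKM + 1) of 11 lists (endothelial, oligodendrocyte, astrocyte, ependymal, choroid plexus, microglia, neuroblast, mural, fibroblast, platelet, erythroid) and at least 3 were found. No doublet caller was run. The genes named were the 10 members, of each of 8 pathway lists up to 3 genes found in most endothelial-like cells, and the 3 genes most correlated with each member; exceptions are stated. The members and lists were chosen with earlier results of these data known. The ratio computation was tested on simulated data. Alternatives were other thresholds, pseudocounts and scalings, libraries left out, and a limit of 2% within 2 library sets. Python 3.11.15, numpy 2.4.6, pandas 2.3.3, scipy 1.17.1 and matplotlib 3.10.9 were used.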

Additional observations from a re-analysis of the deposited data

How the results depend on the processing

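Of 424 alternative values, 393 stayed within the spread between libraries, the counting interval or, for counts, 1.5 times the reported value, and 31 moved beyond it. Between the endothelial-like cells the spread is wide, with SDs of 1.09 (Eng) to 4.39 (Emcn) for the ratios of single members. A ratio that stayed within it can still fall below 2, as that of Cd34 did at 0.055, with an SD of 2.89. The spread between pools is wide, so staying within it does not fix the sign: 34 values took the opposite sign, all 34 of them ratios of pools over cells, and no direction is given for those. All 130 alternative ratios of single members, endothelial-like over other cells, were above 0, and 128 were at least 2; both exceptions were of Cd34, at 1.94 with every library scaled to the same sum and 0.055 with the same upper quartile, which shifted the median of all genes to -0.87. Counting FPKM of at least 0.1 as found gave 98.8% of pairs in endothelial-like cells and 42.5% in other cells; FPKM of at least 10 gave 2% in other cells. The median ratio of endothelial-like over other cells was 9.11 with a pseudocount of 0.1 and 4.22 with one of 10, which follows from the scale. Without cell 3, without cell 1, without cell 19 and without cells 18 to 28 it was 6.59, 6.96, 7.20 and 7.65; leaving out cells 1 and 19 was chosen after seeing the data. The median ratio of pools over cells ranged from -0.81 to 0.47 with 1 pool left out, was -0.55 without cells 18 to 28, and was 1.51 by means of log2 values, a scale on which all genes found in a cell had a median of 0.99. No paired analysis was possible because the replicate numbers of pools and cells do not pair samples and the results come from no test. Depth is 1 limit on the statement that a gene was not found. In the endothelial-like cells FPKM of 1 equals about 6.23 to 20.7 fragments per kilobase of transcript, and only values far below it rest on few fragments. Fragments are not RNA molecules, and loss of RNA before sequencing was not measured. A gene not found in a cell need not be absent from it.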
